A study of Mus musculus with 10 samples.

Results

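Genes of the zona glomerulosa, the outermost layer of the adrenal cortex, and of the Wnt pathway around it were described in whole adrenal RNA of Crem KO and WT mice. The genes were Cyp11b2, Agtr1a, Agtr1b, Dab2, Wnt4, Sfrp1, Rspo3, Znrf3, Axin2 and Shh. They were selected as a group from results of these same arrays, with KO and WT levels already in view, so their genotype differences are given as a description and support nothing by themselves. Each gene was represented by the probe annotated to its symbol alone with the highest mean level over the 10 arrays. Of the 10 genes, 9 were measured, out of 19661 genes with such a probe. Agtr1b, which codes for a second type 1 angiotensin receptor, had no probe listed under its symbol alone in the annotation used and was not analysed here.

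The KO group held 5 Crem-/- mice, in which the gene for a transcription factor of the cAMP pathway is disrupted, and the WT group held 5 wild-type mice. All were untreated, 8 weeks old and of a mixed background, 129Pas x C57Bl/J, and the glands were taken at 0 h of circadian time, with 1 Affymetrix whole-transcript array per mouse. Crem is disrupted in every cell of a KO mouse, so a difference cannot be assigned to the adrenal itself. The labels spread the arrays unequally over 4 batches, with KO 1, KO 2 and WT 1 in batch 1, KO 3 and KO 4 in batch 2, KO 5, WT 2, WT 3 and WT 4 in batch 3, and WT 5 in batch 4. Replicate numbers were given in deposition order and pair no animals.

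In mice the zona glomerulosa lies under the adrenal capsule and makes aldosterone in answer to angiotensin II and potassium. Capsule cells secrete the R-spondin Rspo3, which keeps Wnt receptors on the surface of the cells beneath, and glomerulosa cells make Wnt4 themselves, so that beta-catenin signalling is strongest in this outer layer. Some glomerulosa cells also secrete Shh, which acts on capsule cells and marks progenitors of the cortex.

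All levels are log2 values made by RMA, and every difference is KO minus WT on that scale, with its standard error (SE) or 95% interval from limma. The array medians lay between 7.17 and 7.25. The first principal component of the arrays held 53.8% of the variance and set KO 2, KO 5 and WT 3 apart with scores from 0.43 to 0.49, against -0.38 to 0.12 for the other arrays. The second held 24.8% and set KO 1 apart with a score of 0.84. Markers of fat and liver were high on some arrays, and where this RNA came from was not tested. The mean of 9 adipocyte markers was 12.54 on KO 1 and 12.36 on KO 3, and it lay between 8.20 and 10.68 on the other 8 arrays. The mean of 10 liver and pancreas markers was 11.01 on KO 1 and 6.37 to 8.10 elsewhere. Liver genes carried this, such as Alb at 14.13 on KO 1. The pancreas genes Cela2a, Prss2 and Cpa1 were at 7.03, 6.11 and 6.18 on KO 1 and were highest on other arrays. The mean of 11 markers of chromaffin cells, the catecholamine cells of the medulla, was 7.81 on KO 1 and 10.42 to 11.18 elsewhere. Differences without KO 1 and KO 3, the arrays with the most adipocyte RNA, therefore stand beside those over all arrays. The defining gene of the zona glomerulosa, Cyp11b2, was measured at 10.38 or above on all 10 arrays, and 8 zona fasciculata markers averaged 12.68 to 13.24. Markers of the adrenal cortex were thus high on every array, whereas those of the medulla were low on KO 1.

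No gene of the group passed the test. With limma and Benjamini-Hochberg adjustment over all 25664 probes, 0 probes (0.0%) had an adjusted p under 0.05, and the adjusted p of each of the 9 genes was 0.999. An unadjusted p under 0.05 was found for 878 probes. That is a smaller share than the 0.05 that passes this threshold when no probe differs. The mean was lower in KO for 9 of the 9 genes, where 53.2% of all genes were lower in KO. The unadjusted p was under 0.05, with the lower mean in KO, for 3 of the 9 genes (Wnt4, Sfrp1 and Axin2), where 2.88% of all genes were, and the KO and WT arrays did not overlap, with KO lower, for 1 gene (Sfrp1), where 0.498% of all genes were so placed. The contrast was known when the genes were selected, and nothing is read from these shares. The median difference of the 9 genes was -0.37, beside -0.012 over all genes. All 9 genes were among the 12832 probes with a mean level above the median of all probes (brighter probes). The median difference of the brighter probes was -0.068, and 377 of them had an unadjusted p under 0.05 with KO lower, against 25 with KO higher. In the fit that blocks on batch 6 of the 9 were lower in KO, with a median of -0.12, and in batch 1 alone 6 were lower, with a median of -0.11. In batch 3 alone 4 of the 9 were lower in KO, with a median of 0.01, where 61.0% of all genes were lower. Because whole glands were measured, fewer cells of a type and less RNA per cell cannot be told apart.

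**Figure D1:**
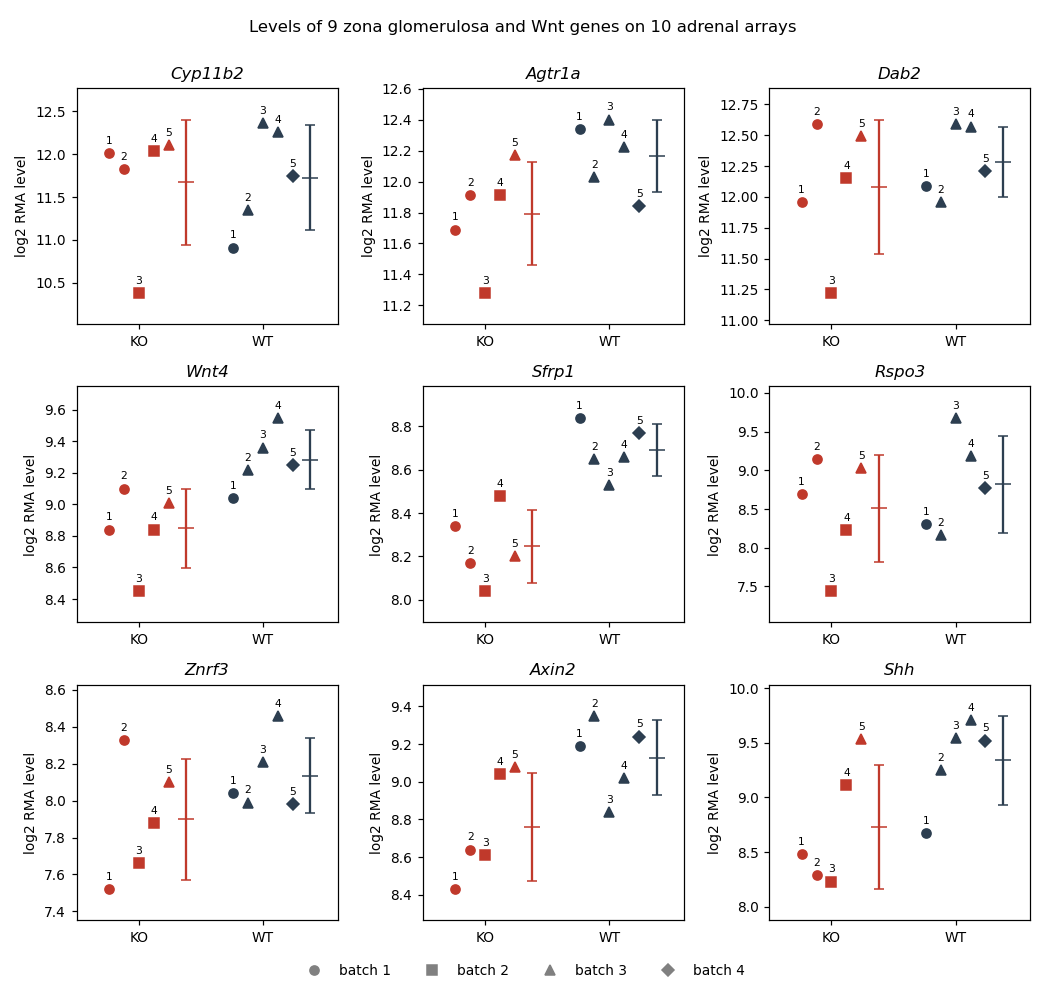
Log2 RMA level (vertical axis, a separate range for each gene) of 9 genes on 5 KO arrays (red, left) and 5 WT arrays (dark, right). Numbers are the replicates, symbols the batches, and the bar beside each group its mean ± SD. KO 3 was the lowest array for 7 of the 9 genes, and only Sfrp1 had no overlap between the groups.

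The ligands are given first. Wnt4, the Wnt protein that glomerulosa cells secrete, had levels of 8.84, 9.10, 8.45, 8.84 and 9.01 on KO 1 to KO 5, against 9.04, 9.22, 9.36, 9.55 and 9.25 on WT 1 to WT 5 (probe 10509273). All KO arrays lay below the WT mean, and 4 of the 5 lay below the lowest WT array, with KO 2 just above WT 1. The KO mean was 8.85 ± 0.25 and the WT mean 9.28 ± 0.19 (SD over 5 arrays each, here and below), a difference of -0.44 (95% interval -0.74 to -0.13). It was -0.23 in the fit that blocks on batch, -0.08 in batch 1 alone, -0.36 in batch 3 alone and -0.30 without KO 1 and KO 3.

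Wnt4 has a second probe, 10509267, which did not order the arrays in the same way. It gave 8.91, 8.54, 8.54, 9.33 and 8.25 on KO 1 to KO 5, against 9.16, 9.0, 8.69, 8.90 and 9.35 on WT 1 to WT 5. KO 4, below every WT array by the first probe, lay above all WT arrays but WT 5 by the second, and WT 3 and WT 4, the highest by the first, were the lowest of the WT arrays by the second. The KO minus WT difference by the second probe was -0.31 (SE 0.20), and it was -0.53 in the fit that blocks on batch, -0.44 in batch 1 alone and -0.62 in batch 3 alone. Both probes thus gave a lower KO mean in each of these fits, while the arrays that carried it differed.

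**Figure D2:**
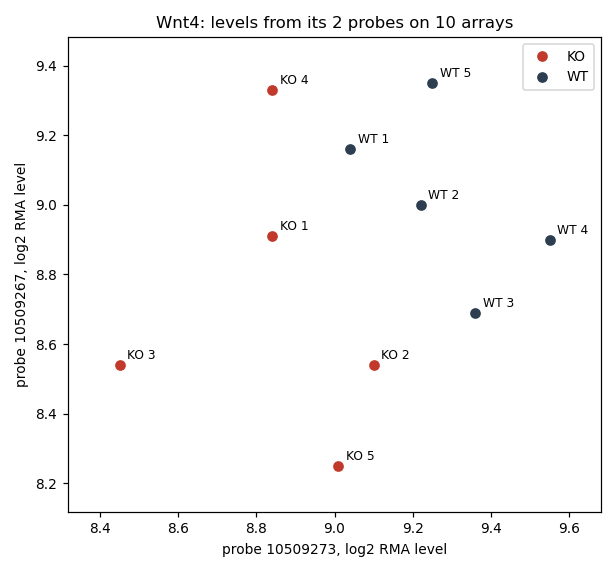
Log2 RMA level of Wnt4 by probe 10509273 (horizontal axis) and by probe 10509267 (vertical axis) on the KO arrays (red) and the WT arrays (dark), 1 point per array. KO 4 is at 8.84 by the first probe and at 9.33 by the second, whereas WT 3 is at 9.36 and 8.69.

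A promoter sequence was at hand for 2 of the 3 genes with an unadjusted p under 0.05, and it is shown as context for the genes whose levels are described. The sequences are the 250 bases before the annotated start site in RefSeq, assembly GRCm38.p6, plus strand, 5′ to 3′, for Wnt4 at chr4:137277385-137277634 and for Axin2 at chr11:108920099-108920348. Capitals mark the GC box GGGCGG on either strand.
Wnt4: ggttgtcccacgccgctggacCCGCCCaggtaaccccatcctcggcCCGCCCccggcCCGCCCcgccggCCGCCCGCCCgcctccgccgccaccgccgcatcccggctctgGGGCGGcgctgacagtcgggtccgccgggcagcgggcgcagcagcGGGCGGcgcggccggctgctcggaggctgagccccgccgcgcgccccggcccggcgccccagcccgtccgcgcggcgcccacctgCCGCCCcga
Axin2: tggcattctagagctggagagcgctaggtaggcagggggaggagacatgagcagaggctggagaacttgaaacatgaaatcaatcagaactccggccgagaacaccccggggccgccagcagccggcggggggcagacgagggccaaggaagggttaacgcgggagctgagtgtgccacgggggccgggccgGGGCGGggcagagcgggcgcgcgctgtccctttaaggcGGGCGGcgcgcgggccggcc
The GC box was found 8 times before the start of Wnt4, where 2 of the matches overlap, and 2 times before that of Axin2. It occurs in 35.7% of 32851 promoter windows that run from 250 bases before to 50 bases after a start. GC content over the whole window was 84.3% for Wnt4 and 70.0% for Axin2. The letters of a cAMP response element (TGACGTCA, in 1.79% of windows), of the core of that element (TGACG, in 20.8%) and of a TCF site (CTTTGA, in 16.0%), searched on both strands, were not in these 2 windows.

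Rspo3, the R-spondin of the capsule, varied more over the arrays than any other of the 9 genes, with a range of 2.24. Its levels were 8.69, 9.15, 7.44, 8.23 and 9.03 on KO 1 to KO 5, against 8.31, 8.16, 9.68, 9.18 and 8.77 on WT 1 to WT 5. KO 3 was lowest and WT 3 highest, and the remaining arrays of both genotypes were mixed. The means were 8.51 ± 0.70 in KO and 8.82 ± 0.63 in WT, a difference of -0.31 that was smaller than the SD of either group (95% interval -1.14 to 0.52). Its sign turned to 0.30 in the fit that blocks on batch, 0.61 in batch 1 alone and 0.02 in batch 3 alone, and the difference was -0.01 without KO 1 and KO 3.

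Shh, the Hedgehog ligand of glomerulosa cells, had levels of 8.48, 8.29, 8.23, 9.11 and 9.53 on KO 1 to KO 5, against 8.67, 9.25, 9.54, 9.71 and 9.52 on WT 1 to WT 5. KO 1, KO 2 and KO 3 lay below every WT array, while KO 5 stood among the higher WT arrays. The means were 8.73 ± 0.57 in KO and 9.34 ± 0.41 in WT, and the difference of -0.61 was the largest of the 9 over all arrays (95% interval -1.23 to 0.02). It was -0.12 in the fit that blocks on batch, -0.29 in batch 1 alone, 0.03 in batch 3 alone and -0.36 without KO 1 and KO 3.

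Sfrp1 codes for a secreted protein that binds Wnt ligands and keeps them from their receptors. Its levels were 8.34, 8.17, 8.04, 8.48 and 8.20 on KO 1 to KO 5, against 8.84, 8.65, 8.53, 8.66 and 8.77 on WT 1 to WT 5. The highest KO array, KO 4, lay just below the lowest WT array, WT 3, and the groups did not overlap. The means were 8.24 ± 0.17 in KO and 8.69 ± 0.12 in WT, a difference of -0.44 (95% interval -0.68 to -0.21). The difference was -0.49 in the fit that blocks on batch, -0.58 in batch 1 alone and -0.41 in batch 3 alone. It was -0.41 without KO 1 and KO 3 and -0.44 without KO 2, KO 5 and WT 3. A second inhibitor of the pathway, Znrf3, is a ubiquitin ligase that removes Frizzled receptors from the membrane and is itself held back by R-spondins. Its levels were 7.52, 8.33, 7.66, 7.88 and 8.10 on KO 1 to KO 5, against 8.04, 7.99, 8.21, 8.46 and 7.98 on WT 1 to WT 5. KO 1, KO 3 and KO 4 lay below every WT array, but KO 2 was second only to WT 4. The means were 7.90 ± 0.33 in KO and 8.14 ± 0.20 in WT, and the difference of -0.24 (95% interval -0.60 to 0.13) was -0.11 in the fit that blocks on batch, -0.11 in batch 1 alone, -0.12 in batch 3 alone and -0.03 without KO 1 and KO 3.

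Axin2, a scaffold of the complex that destroys beta-catenin and a widely used readout of beta-catenin signalling, had levels of 8.43, 8.64, 8.61, 9.04 and 9.08 on KO 1 to KO 5, against 9.19, 9.35, 8.84, 9.02 and 9.24 on WT 1 to WT 5. KO 1, KO 2 and KO 3 lay below every WT array, and KO 4 and KO 5 lay inside the WT range, above WT 3 and WT 4. The means were 8.76 ± 0.29 in KO and 9.13 ± 0.20 in WT, a difference of -0.37 (95% interval -0.71 to -0.03). It was -0.30 in the fit that blocks on batch, -0.65 in batch 1 alone and -0.21 without KO 1 and KO 3, but 0.01 in batch 3 alone, where KO 5 at 9.08 was set against 9.35, 8.84 and 9.02 in WT.

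The remaining 3 genes mark the differentiated glomerulosa cell. Cyp11b2, aldosterone synthase, had levels of 12.01, 11.83, 10.38, 12.04 and 12.11 on KO 1 to KO 5, against 10.91, 11.35, 12.36, 12.26 and 11.75 on WT 1 to WT 5. Of the KO arrays 4 lay close together, between 11.83 and 12.11, and KO 3 lay below all other arrays. The means were 11.67 ± 0.73 in KO and 11.73 ± 0.61 in WT, a difference of -0.06 (95% interval -0.90 to 0.78). Without KO 3 the difference was 0.27, without KO 1 and KO 3 it was 0.26, and it was 0.53 in the fit that blocks on batch, 1.01 in batch 1 alone, where WT 1 is the single WT array, and 0.11 in batch 3 alone. A direction for Cyp11b2 therefore could not be given. Its sequence is close to that of Cyp11b1, and hybridisation of the other transcript was not tested.

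Agtr1a, the main receptor through which angiotensin II reaches glomerulosa cells, had levels of 11.69, 11.91, 11.28, 11.91 and 12.17 on KO 1 to KO 5, against 12.34, 12.03, 12.40, 12.22 and 11.84 on WT 1 to WT 5. KO 3 and KO 1 lay below every WT array, and the other KO arrays lay inside the WT range. The means were 11.79 ± 0.33 in KO and 12.17 ± 0.23 in WT, a difference of -0.38 (95% interval -0.76 to 0.00390), and it was -0.28 in the fit that blocks on batch, -0.55 in batch 1 alone, -0.05 in batch 3 alone and -0.17 without KO 1 and KO 3. Agtr1b is a near copy of this gene, and how far this probe also reads it was not tested. Dab2, an endocytic adaptor that marks the glomerulosa in rodents, had levels of 11.96, 12.59, 11.22, 12.15 and 12.49 on KO 1 to KO 5, against 12.09, 11.96, 12.59, 12.57 and 12.21 on WT 1 to WT 5. KO 3 was again far below the rest, and the other arrays of both genotypes covered the same range. The difference of -0.20 (95% interval -0.76 to 0.35) was 0.01 without KO 3, 0.15 in the fit that blocks on batch, 0.18 in batch 1 alone, 0.12 in batch 3 alone and 0.13 without KO 1 and KO 3. A second Dab2 probe, 10422744, stayed between 4.01 and 4.45 on all arrays and differed by -0.10 (SE 0.10).

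**Figure D3:**
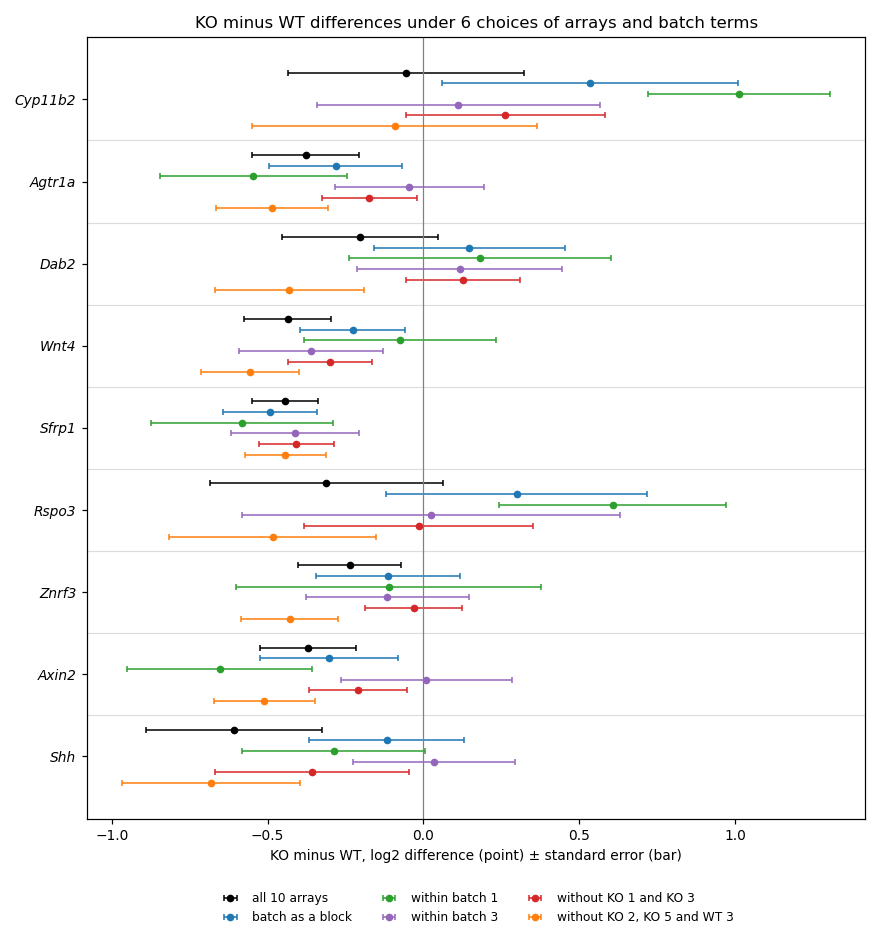
KO minus WT log2 difference (point) with its standard error (bar) for 9 genes, over all 10 arrays and in 5 other fits with batch terms or fewer arrays, marked by colour. Sfrp1 lies between -0.58 and -0.41 in all 6 fits, whereas Cyp11b2 runs between -0.09 and 1.01.

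Across arrays, the genes were low together on KO 3. This array was the lowest for 7 of the 9 genes and among the lowest 2 for 9 of 9, with a mean deviation of -0.75 from the gene means. KO 1 was lowest for the other 2 genes, Znrf3 and Axin2, with a mean deviation of -0.23. WT 4 lay above the mean for 9 of 9 genes (0.40) and WT 3 for 8 (0.38), and KO 5 lay above it for 7 (0.19). The 10 zona glomerulosa markers outside this group averaged 9.09 on KO 3 and 9.22 on KO 5, and 9.42 to 9.60 on the other arrays. The adipocyte marker mean was highest on KO 1, at 12.54, and KO 3, at 12.36, and next highest on WT 1, at 10.68. It was 9.41 on KO 5, and the 10 glomerulosa markers averaged 9.45 on KO 1. Of single markers, Lep, which codes for the adipocyte hormone leptin, was at 11.26 on KO 1 and 10.38 on KO 3 and at 5.67 to 7.24 on the other arrays. The part of adipocyte RNA in the low levels of KO 3 was not tested. Without KO 1 and KO 3, the mean was lower in KO for 7 of the 9 genes and their median difference was -0.17, beside -0.04 over all genes.

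**Figure D4:**
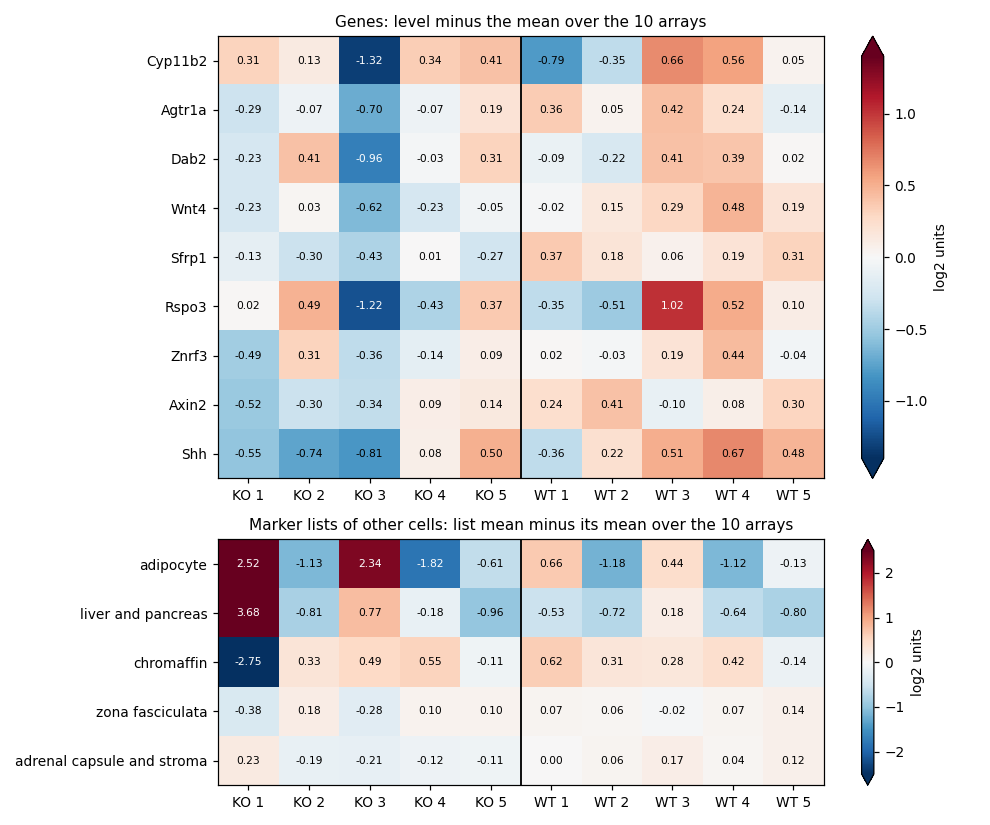
Upper panel: level minus the mean over 10 arrays for each of 9 genes. Lower panel: the same for the mean of 5 marker lists of other cells, in log2 units, with KO arrays left of the line and WT arrays right of it. KO 3 is blue for all 9 genes, KO 1 and KO 3 are red for adipocyte markers, and KO 1 is blue for chromaffin markers.

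Pairwise correlations of the levels over the 10 arrays were computed for the 36 pairs of the 9 genes. Of these, 34 were positive, and r ranged from -0.04 to 0.92. The genes were selected with lower KO means in view, which by itself makes pooled r more positive, and the 53.8% of variance in the first component is shared by many genes, so the p of a pair tests r against 0 and not against other genes. After each genotype mean was subtracted, a step added after the data were seen, 30 of 36 were positive and r ranged from -0.27 to 0.92. After Benjamini-Hochberg adjustment over the 36 pairs, 8 had an adjusted permutation p under 0.05 for Pearson's r and 1 for Spearman's rho. That pair was Dab2 and Rspo3 (r = 0.92, permutation p = 0.00018, adjusted p = 0.00648, and rho = 0.90, permutation p = 0.00088, adjusted p = 0.0317, two-sided, n = 10 arrays). Both genes were high on KO 2, KO 5 and WT 3, the arrays that the first component sets apart, at 12.59, 12.49 and 12.59 for Dab2 and 9.15, 9.03 and 9.68 for Rspo3. For this pair r was 0.85 without KO 3 and WT 3, the arrays farthest from the median of Dab2. It was 0.91 over the 7 arrays without KO 2, KO 5 and WT 3, and 0.91 with genotype means subtracted. Dab2 also varied with Znrf3 (r = 0.80, permutation p = 0.00474, adjusted p = 0.0427, and rho = 0.84, permutation p = 0.00387, adjusted p = 0.0697), where r was 0.83 without the same 2 arrays. Cyp11b2 varied with Rspo3 (r = 0.84, permutation p = 0.00153, adjusted p = 0.0275, and rho = 0.78, permutation p = 0.0108, adjusted p = 0.0881), and r was 0.71 without KO 3 and WT 1. For Cyp11b2 and Dab2 r was 0.83 (permutation p = 0.00406, adjusted p = 0.0427, and rho = 0.72, permutation p = 0.0228, adjusted p = 0.0937), and it was 0.62 without the same 2 arrays. The other 4 pairs under the threshold joined Agtr1a with Dab2, and Wnt4 with Agtr1a, Dab2 and Znrf3. Their r was 0.77 to 0.79 over all arrays and 0.31 to 0.61 without the 2 farthest arrays, KO 3 and a WT array. In each pair these arrays were set by the median of 1 gene, the earlier in the order given at the start. Cutting the range of 1 gene tends by itself to lower r, so the fall does not show how far a relation rested on them. The Wnt4 pairs were read from probe 10509273 alone. Its r with the second Wnt4 probe was 0.17, and pairs of the second probe were not computed.

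The relation of Sfrp1 and Axin2 to Cyp11b2, Dab2 and Rspo3 depended on the arrays. Sfrp1 had r = 0.12 with Cyp11b2 (rho = 0.01), 0.26 with Dab2 (rho = 0.12) and 0.15 with Rspo3 (rho = 0.13), with permutation p = 0.744, 0.494 and 0.683. Axin2 had r = -0.01 with Cyp11b2 (rho = -0.18), 0.21 with Dab2 (rho = 0.04) and -0.04 with Rspo3 (rho = -0.16), with permutation p = 0.985, 0.584 and 0.916. The adjusted p of these 6 values of r was 0.573 or above, and the permutation p of rho was 0.63 or above. Without KO 3 all 6 were negative, at -0.49, -0.37 and -0.35 for Sfrp1 and -0.46, -0.19 and -0.43 for Axin2. Without the 2 arrays farthest from the median of 1 gene of the pair, which differed by pair, they were -0.20, -0.41 and -0.26 for Sfrp1 and -0.42, -0.13 and -0.42 for Axin2. Without KO 2, KO 5 and WT 3 they were positive, at 0.33, 0.77 and 0.60 for Sfrp1 and 0.06, 0.48 and 0.18 for Axin2. The 2 genes had r = 0.71 with each other (permutation p = 0.0237, adjusted p = 0.0774, and rho = 0.67, permutation p = 0.0386, adjusted p = 0.116), 0.55 without KO 2 and KO 3, and 0.41 with genotype means subtracted. The largest batch holds 4 arrays, too few for a correlation within a batch, and all pairs share the arrays and their normalisation.

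The genes most like each of the 9 over the 10 arrays were named by the highest r among 9821 genes with a mean level above the median. For Dab2 they were Peg10 (0.983), Lrrc55 (0.963) and Timp3 (0.961), and for Rspo3 Cd47 (0.963), Septin2 (0.957) and Uimc1 (0.957). Wnt4, by probe 10509273 alone, was most like Dact1 (0.961), an intracellular regulator of Wnt signals, then Ncoa3 and Sh3bp5 (0.954 each). Sfrp1 was most like Afap1l2 (0.953), Adgrb2 (0.945) and Arf2 (0.924), and Axin2 most like Prpf6 (0.978), Wdr82 (0.965) and Got1 (0.962). The closest genes were Skp2 (0.901), Zfp36l1 (0.889) and Lrch1 (0.879) for Cyp11b2, and Mmp14 (0.902), Acvr1 (0.894) and Crlf3 (0.891) for Agtr1a. They were Gnl3l (0.960), Washc2 (0.953) and Kcnk9 (0.951) for Znrf3, where Kcnk9 codes for a potassium channel of glomerulosa cells, and Cstf2t (0.926), Dnajc5 (0.916) and Pmp22 (0.912) for Shh. With 10 arrays and 9821 candidates high values arise by selection, so these are a description of likeness.

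The rest of the Wnt pathway was read from lists of its parts. Outside the 9 genes, 80 of 81 listed Wnt genes were measured, 0 passed the test, and 53 were lower and 27 higher in KO. Their median difference was -0.07, beside -0.012 over all genes and -0.068 over the brighter probes. The counts of the lists below moved with the batch terms, and so did the share of all genes lower in KO, which was 53.2% over all arrays, 59.9% in the fit that blocks on batch, 57.3% in batch 1 alone, 61.0% in batch 3 alone, 58.6% without KO 1 and KO 3 and 47.7% without KO 2, KO 5 and WT 3. Of the 21 genes for ligands and their secretion, 0 passed, 10 were lower and 11 higher in KO over all arrays, with a median of 0.00. This balance did not hold in the fit that blocks on batch, where 16 were lower and 5 higher with a median of -0.12, nor in batch 1 alone with 17 lower and batch 3 alone with 14 lower. Wnt2, a ligand of the canonical pathway, ran opposite to Wnt4, with 7.17, 6.66, 7.30, 7.03 and 6.92 on KO 1 to KO 5, against 6.74, 6.68, 6.58, 6.81 and 6.80 on WT 1 to WT 5 (difference 0.29, SE 0.12, and 0.15 without KO 1 and KO 3). Only KO 2 lay inside the WT range. Wnt5b differed by -0.18 and Wls, which carries Wnt proteins to the surface, by -0.26, which was 0.02 in the fit that blocks on batch.

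Of the 15 receptor genes 0 passed and 13 were lower in KO over all arrays, with a median of -0.07, but 9 were lower in the fit that blocks on batch, 8 in batch 1 alone and 10 in batch 3 alone. The lowest unadjusted p was that of the co-receptor Lrp5, at 9.82, 10.22, 10.23, 10.78 and 10.10 on KO 1 to KO 5, against 10.67, 11.07, 10.20, 10.73 and 10.73 on WT 1 to WT 5 (difference -0.45, SE 0.20). KO 4 and WT 3 were the arrays that crossed into the other group. Fzd8 differed by -0.42, Fzd1 by -0.21 and Fzd10 by -0.17. Among the 9 genes for R-spondins, their receptors and their ligases 0 passed, and 6 were lower and 3 higher in KO. Lgr5, an R-spondin receptor, was at 6.81 on KO 1 and between 9.19 and 10.29 on all other arrays, and it was highest on KO 3, at 10.29. Its difference was -0.49 over all arrays and -0.06 without both KO 1 and KO 3. Chromaffin markers were also low on KO 1, and their part in the level of Lgr5 was not tested. Lgr4 differed by -0.23, and by 0.42 in the fit that blocks on batch. The list of secreted antagonists also holds the membrane proteins Kremen1, Kremen2 and Apcdd1. Of its 16 genes 0 passed, and 10 were lower and 6 higher in KO over all arrays, with a median of -0.06. The split was 14 lower with a median of -0.21 in the fit that blocks on batch, 15 lower in batch 3 alone, and 7 lower without KO 2, KO 5 and WT 3. Beside Sfrp1, Dkk3 differed by -0.22, Dkk1 by 0.11 and Sfrp4 by -0.21.

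Inside the cell, 19 of 20 genes for the destruction complex and its nuclear partners were measured, 0 passed, and 14 were lower in KO, with a median of -0.12 over all arrays and -0.30 in the fit that blocks on batch. Ctnnb1, which codes for beta-catenin itself, had levels of 11.71, 11.85, 11.67, 12.18 and 12.15 on KO 1 to KO 5, against 12.10, 12.34, 12.11, 12.26 and 12.43 on WT 1 to WT 5 (difference -0.33, SE 0.13). KO 1, KO 2 and KO 3 lay below every WT array, the same 3 arrays as for Axin2 and Shh. The difference was -0.32 in batch 1 alone, -0.08 in batch 3 alone and -0.19 without KO 1 and KO 3. Lef1, a nuclear partner of beta-catenin, differed by -0.30 and Dvl3 by -0.24.

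Among the Wnt target genes 12 of 13 were measured, 0 passed and 12 were lower in KO, with a median of -0.22. This list shares Axin2 and Znrf3 with the genes above. Of the other 10, 10 were lower in KO over all arrays, 9 in the fit that blocks on batch, 8 in batch 1 alone, 8 in batch 3 alone, 9 without KO 1 and KO 3, and 7 without KO 2, KO 5 and WT 3. Markers of other cells differed in direction by list and by the arrays used. Over all arrays, lower in KO were 10 of 11 chromaffin markers (median -0.70), 7 of 8 zona fasciculata markers and 9 of 11 capsule and stroma markers. Higher in KO were 9 of 9 adipocyte markers (median 0.53), 10 of 10 liver and pancreas markers (median 1.3) and 6 of 8 kidney markers. Without KO 1 and KO 3, 9 of 9 adipocyte markers were lower in KO (median -0.90), and so were 6 of 10 liver and pancreas markers (median -0.06). Of the kidney markers 4 were then lower and 4 higher. Lower in that fit were also 8 of 11 chromaffin markers (median -0.18), 3 of 8 zona fasciculata markers and 10 of 11 capsule and stroma markers. The 8 endothelial markers were lower in 8 cases with a median of -0.35, in 7 in the fit that blocks on batch and in 8 without KO 1 and KO 3, and 7 of 8 macrophage markers were lower with a median of -0.19. The endothelial mean lay between 10.01 and 10.46 on KO arrays, against 10.29 to 10.81 on WT arrays, and the macrophage mean between 9.02 and 10.03 on KO arrays, against 9.44 to 10.08 on WT arrays. The part of these other cells in the target genes was not tested. Ccnd1, which codes for the cell cycle regulator cyclin D1, differed most, at 10.20, 10.72, 10.04, 10.92 and 10.75 on KO 1 to KO 5, against 11.06, 11.30, 10.97, 11.61 and 11.40 on WT 1 to WT 5. The groups did not overlap, although KO 4 came close to WT 3. The difference was -0.74 (SE 0.19), and it was -0.57 in the fit that blocks on batch, -0.60 in batch 1 alone, -0.54 in batch 3 alone and -0.47 without KO 1 and KO 3. Nkd1, a feedback inhibitor of Wnt signals, differed by -0.33.

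**Figure D5:**
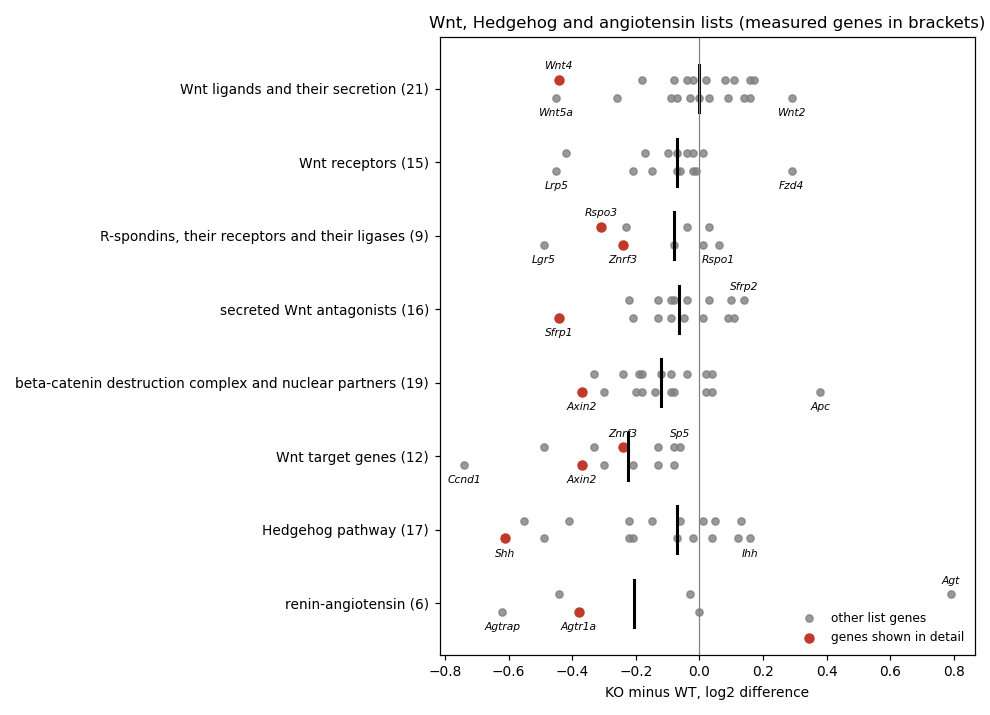
KO minus WT log2 difference (horizontal axis) of each measured gene in 8 lists, over all 10 arrays. Red points are the genes described in detail, black bars the list medians, and names stand at the ends of each list. The 12 Wnt target genes all lie below 0, and the 21 ligand and secretion genes lie on both sides with a median of 0.00, in this fit without a batch term.

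In the Hedgehog list 17 of 18 genes were measured, 0 passed, and 11 were lower and 6 higher in KO, with a median of -0.07, and 14 were lower in the fit that blocks on batch and 8 without KO 2, KO 5 and WT 3. Boc, a co-receptor for Shh, was at 8.56, 9.06, 8.84, 9.20 and 9.22 on KO 1 to KO 5, against 9.33, 9.80, 9.25, 9.32 and 9.63 on WT 1 to WT 5. The groups did not overlap, by a narrow margin between KO 5 and WT 3, and the difference of -0.49 (SE 0.16) was -0.52 in batch 1 alone, -0.23 in batch 3 alone and -0.30 without KO 1 and KO 3. Smo, the signal transducer of the pathway, differed by -0.41 and Hhip, a decoy receptor, by -0.22. Gli1, the usual target gene of Hedgehog signals in capsule cells, had means of 7.34 ± 0.11 in KO and 7.35 ± 0.11 in WT (difference -0.02, SE 0.09).

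Of the 16 zona glomerulosa markers 15 were measured, 0 passed, and 12 were lower and 3 higher in KO, with a median of -0.22. Of these, 5 are genes described above, selected with their levels in view. The 10 others were split into 7 lower and 3 higher, with a median of -0.18 over all arrays and -0.20 in the fit that blocks on batch, and into 5 and 5 with a median of -0.02 without KO 1 and KO 3. Among them, Cacna1h, a T-type calcium channel of glomerulosa cells, was at 9.0, 9.75, 9.18, 10.02 and 9.53 on KO 1 to KO 5, against 9.88, 10.36, 10.06, 9.91 and 10.34 on WT 1 to WT 5. Only KO 4 reached the WT range, and the difference of -0.62 (SE 0.20) was -0.51 in batch 1 alone, -0.58 in batch 3 alone and -0.34 without KO 1 and KO 3. The 8 zona fasciculata markers had a median of -0.11 over all arrays and 0.05 without KO 1 and KO 3, and the 11 capsule and stroma markers had one of -0.16 over all arrays and -0.21 without those 2. In the renin-angiotensin list 6 of 10 genes were measured, 0 passed and 5 were lower in KO. Agtr2, the type 2 receptor, was at 7.15 on KO 1 and 9.62 to 11.10 on the other arrays, and Agt, angiotensinogen, was at 10.87 on KO 1 and 7.2 to 9.39 on the others. Liver genes such as Alb were also highest on KO 1, and their part in these levels was not tested. Without KO 1 and KO 3 the difference was 0.43 for Agtr2 and -0.26 for Agt. Agtrap, which codes for a protein that binds the type 1 receptor, differed by -0.62 (SE 0.37), and by -0.30 without KO 1 and KO 3.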

How the data were processed

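Whole adrenal RNA of 5 KO and 5 WT mice was measured on Affymetrix whole-transcript arrays. The deposited values are log2 levels per probe, made by the authors with RMA per the processing notes. Software, version, filters and any batch step were not given in the sources used here. RMA equalises the arrays' distributions and gives no detection call, so no probe was classed as absent. Of 35557 rows, 25689 held values. After 25 control probes were left out, 25664 were tested, of which 20777 carry a single gene symbol (19661 genes), 232 several and 4655 none.

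The genotypes were compared on all 10 arrays in R 4.3.3 by limma 3.58.1, with lmFit, eBayes, two-sided tests and genotype as the only term, with Benjamini-Hochberg adjustment over all 25664 probes and a threshold of 0.05. The script was tested on simulated data with independent noise, no batches and differences larger than those of the 9 genes. That test checks the code and does not bear on power for small differences or on variation that probes share. Within batch 1 the single WT array, and within batch 3 the single KO array, was assumed to vary like the others. Precision is limited by the number of arrays.

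The genes and lists were chosen with earlier results of these data known. From each list the text names up to 4 genes with the smallest unadjusted p, and for each gene the 3 genes with the highest r. Lgr5, Agtr2, Agt, Gli1 and Lep were given more space after their values were seen. Alternatives were batch as a fixed or random block (consensus correlation 0.172), single batches, repeated quantile normalisation, a median shift, brighter probes, eBayes with trend and robust, arrayWeights, averaging a gene over its probes and leaving out each array. The fits without KO 1 and KO 3, and without KO 2, KO 5 and WT 3, and the 2 added views of the correlations (genotype means subtracted, and without KO 2, KO 5 and WT 3) were chosen after the data were seen. Correlations were tested with 100000 permutations. Promoters came from a table made from RefSeq GRCm38.p6, and windows of 4 of the 10 genes were in the table used here.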

Additional observations from a re-analysis of the deposited data

Results flagged for a closer look

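Cyp11b2 on KO 3, at 10.38, lay far from the other KO arrays, of which the nearest was at 11.83. The gap was 0.84 of the range of the 5 KO arrays, above the Dixon limit of 0.71 for 5 values. In all, 18 groups were examined in this way, and chance flags about 1 group in 20.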

How the results depend on the processing

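Of 203 alternative values of the genes and of the count of probes past the threshold, 184 kept their direction and their side of the threshold, and 19 turned their sign. Brighter probes and eBayes with trend and robust leave a difference as it is by construction, so they bear on p-values alone. With batch as a fixed block the difference was 0.53 for Cyp11b2, 0.15 for Dab2 and 0.30 for Rspo3. Within batch 1 it was 1.01 for Cyp11b2, 0.18 for Dab2 and 0.61 for Rspo3. Within batch 3 it was 0.11 for Cyp11b2, 0.12 for Dab2, 0.0249 for Rspo3, 0.00881 for Axin2 and 0.0334 for Shh. For Cyp11b2 it was 0.0835 with batch as a random block and 0.11 with arrayWeights. Without KO 1 and KO 3 it was 0.26 for Cyp11b2 and 0.13 for Dab2. Leaving out 1 array at a time gave -0.26 to 0.27 for Cyp11b2, positive without KO 3, WT 3 or WT 4, and -0.33 to 0.0131 for Dab2, positive without KO 3. Without KO 3 the difference of Rspo3 was -0.04. The fixed block and single batch fits take no difference from KO 3, the array lowest for 7 of the 9 genes. The cause of the turned signs was not tested. Agtr1a, Wnt4, Sfrp1 and Znrf3 kept their sign in the other alternatives that were run, although Agtr1a came to -0.05 and Wnt4 to -0.08 in single batches and Znrf3 to -0.03 without KO 1 and KO 3. The count of probes past the adjusted threshold was 0 in all of them, and no adjusted p was below 0.352. In the fits of all 25664 probes to more than a single batch, 503 (without WT 5) to 3126 (without KO 2, KO 5 and WT 3) had an unadjusted p under 0.05. The lowest of these counts is below, and the highest above, the share of 0.05 that passes when no probe differs. The background step could not be rerun because only processed values were used. No paired analysis was possible because the replicate numbers were given in deposition order.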
